A study of Mus musculus with 6 samples.

Results

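Solute carrier (Slc) genes encode membrane proteins that move sugars, amino acids, ions, metals, vitamins and metabolites across the plasma membrane or the membranes of organelles. The members described here were the genes with a symbol of the form Slc, family number, letter and member number on the array, which gave 254 genes in 48 families among 12393 genes measured. They were chosen by name alone, through 404 probe sets that carry a single gene symbol, and the probe set of highest mean log2 level over the 6 arrays stood for each gene. Total RNA from lenses of newborn mice (postnatal day 0) was measured on 1-colour oligonucleotide arrays, 3 from mice labelled Le-AP-2alpha conditional mutant, whose targeted gene is Tfap2a (Tcfap2a in the labels), and 3 from wild-type littermates. Beyond the prefix Le, the labels name no other allele, strain, sex or driver line for either group. They do not give the number of animals in a sample. The p-values therefore cover only the spread between these samples, which may be technical in part. All levels are log2 of the deposited intensity, and all differences are mutant minus wild type on that scale, with the standard error (SE) of a limma fit across all 22626 probe sets.

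The lens has no blood vessels of its own and is fed by the fluids around it. Its epithelial cells and fibres take up glucose, amino acids, vitamin C and ions through transporters, release lactate through monocarboxylate carriers, and keep sodium and calcium low with pumps and exchangers. Lens glucose uptake is carried mainly by GLUT1, the product of Slc2a1, and neutral amino acids, glycine and glutamate enter through members of the Slc1, Slc6, Slc7 and Slc38 families. AP-2 factors bind GC-rich palindromes of the form GCCNNNGGC.

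The stretches of 250 bases before the start sites of 4 members are printed because the factor targeted in the mutants binds DNA of that form. Slc8a1 and Slc46a3 had the lowest limma p among members higher and lower in the mutants that have a window in the sequence table, Slc6a3 was the member with p under 0.05 that holds the letters GCCNNNGGC, and Slc2a1 is the main glucose carrier of the lens. Sequences are from RefSeq on GRCm38.p6, 5′ to 3′ on the strand of the gene, in lower case, with a match to GCCNNNGGC in capitals. The Slc8a1 window is at chr17:81738388-81738637 (minus strand), that of Slc46a3 at chr5:147894816-147895065 (minus strand), that of Slc6a3 at chr13:73536497-73536746 (plus strand) and that of Slc2a1 at chr4:119108495-119108744 (plus strand).
Slc8a1: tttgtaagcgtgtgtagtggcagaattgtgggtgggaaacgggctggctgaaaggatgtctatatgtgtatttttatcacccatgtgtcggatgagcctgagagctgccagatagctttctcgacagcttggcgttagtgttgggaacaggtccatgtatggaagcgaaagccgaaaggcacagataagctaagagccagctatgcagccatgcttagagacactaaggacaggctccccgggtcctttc
Slc46a3: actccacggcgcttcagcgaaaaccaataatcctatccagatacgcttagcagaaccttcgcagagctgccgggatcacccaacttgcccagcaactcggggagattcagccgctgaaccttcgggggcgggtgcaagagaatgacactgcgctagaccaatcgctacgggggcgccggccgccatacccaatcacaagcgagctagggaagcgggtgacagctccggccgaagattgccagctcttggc
Slc6a3: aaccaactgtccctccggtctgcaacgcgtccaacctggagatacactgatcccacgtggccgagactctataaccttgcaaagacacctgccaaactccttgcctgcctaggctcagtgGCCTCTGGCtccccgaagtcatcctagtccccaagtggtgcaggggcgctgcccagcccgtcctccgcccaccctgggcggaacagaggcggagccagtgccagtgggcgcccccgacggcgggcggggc
Slc2a1: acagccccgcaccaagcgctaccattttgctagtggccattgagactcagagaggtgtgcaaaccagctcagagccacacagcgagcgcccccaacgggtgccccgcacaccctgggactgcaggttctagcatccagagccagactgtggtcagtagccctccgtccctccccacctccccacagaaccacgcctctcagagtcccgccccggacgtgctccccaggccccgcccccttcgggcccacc
The match in Slc6a3 begins 130 bases before the start site. The motif reads the same on both strands, so 1 search covers both. It was present in 41 of 265 windows of Slc genes (15.5%) and in 4509 of 32851 windows of all genes (13.7%). Of the 11 Slc genes with an unadjusted p under 0.05, 8 had a window and 1 of them, Slc6a3, held the motif. Slc2a3, Slc6a8 and Slc38a3 had no window in the table. A match is a description of letters, not a binding site, and says nothing of the difference measured.

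The targeted gene was measured first. The brightest Tfap2a probe set was at 9.57, 9.64 and 9.83 in mutants 1 to 3 and at 8.36, 9.26 and 9.56 in wild types 1 to 3, a difference of 0.62 ± 0.33 that was 0.27 without wild type 1. Its other probe sets differed by 0.36 ± 0.36 and 1.57 ± 0.49, so none was lower in mutants. The part of the gene that was deleted is not given, so these values do not check the labels. The median probe set of an array was at 5.19 to 5.32. One array, wild-type replicate 1, differed from the rest: its Pearson correlation with any other array was 0.926 to 0.945, whereas the other 5 correlated at 0.974 to 0.985 with each other. For the probe set that stood for each gene, differences of single genes that this array moved by over 1.5 times are given with and without it. Those of other probe sets are given with all arrays only, and can rest on it. Of markers of the lens, fibre genes had a median difference of -0.34 (10 of 15 listed genes measured, 9 lower) and epithelial genes a median of -0.01 (9 measured, 4 higher). Without wild-type replicate 1 these medians were -0.49 and -0.20. Of the epithelial genes 3 (Cdh1, Foxe3 and the member Slc38a3) had lower values at an unadjusted p under 0.05 with all arrays and 0 had higher ones. At the same threshold 2 fibre genes (Bfsp1 and Dnase2b) had lower values and 0 had higher ones. All 10 fibre genes and 8 of the 9 epithelial genes were brighter than the median probe set. So were 55.4% of all genes, 8 of 10 neuron and synapse markers and 6 of 8 measured neural retina markers. Brightness of these markers therefore does not check the tissue label. All 10 markers of neurons and synapses had higher values in mutants, with a median difference of 1.39. In bulk RNA, fewer cells of a type and less RNA per cell cannot be told apart.

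No Slc gene passed the test. At a limma p adjusted over all probe sets by Benjamini-Hochberg, 0 of 254 Slc genes were under 0.05, as were 0 of 12393 genes (0.0%), and the lowest adjusted p of an Slc gene was 0.999. At an unadjusted p under 0.05, 7 Slc genes were higher in mutants, 2.76% of the members against 2.13% of all genes. In the other direction 4 were lower, 1.57% against 1.72%. Every mutant array was above every wild-type array for 16 Slc genes (6.3%, against 4.22% of all genes) and below for 11 (4.33%, against 4.58%). By the p-value these shares lie near those of all genes. Of the genes without overlap, 7 with higher values (Slc2a3, Slc6a8, Slc6a9, Slc25a37, Slc31a2, Slc38a2 and Slc39a14) and 3 with lower values (Slc22a23, Slc38a3 and Slc46a3) were brighter than the median probe set, out of 112 bright members. Of all bright genes 4.66% were higher without overlap and 2.46% lower. The median difference of the 254 genes was -0.01, as for all genes, with 122 higher and 132 lower.

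Brightness set how much of the family could be followed. A probe set is called dim where its mean log2 level was below 5.26, the median of all probe sets, and values of dim probe sets can be compressed by background correction. Of the Slc genes 112 (44.1%) were brighter than this, against 55.4% of all genes. The median difference of the 112 was 0.03, with 60 higher and 52 lower, and it was 0.03 for all 6867 bright genes. In 36 of the 112 (32.1%, against 36.6% of all bright genes) all 6 arrays lay within 1 log2, a 2-fold range. Slc2a1, Slc1a4, Slc3a2, Slc7a5, Slc6a9, Slc12a2, Slc25a3 and Slc25a4 were among these, by the probe set that stood for each gene.

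**Figure D1:**
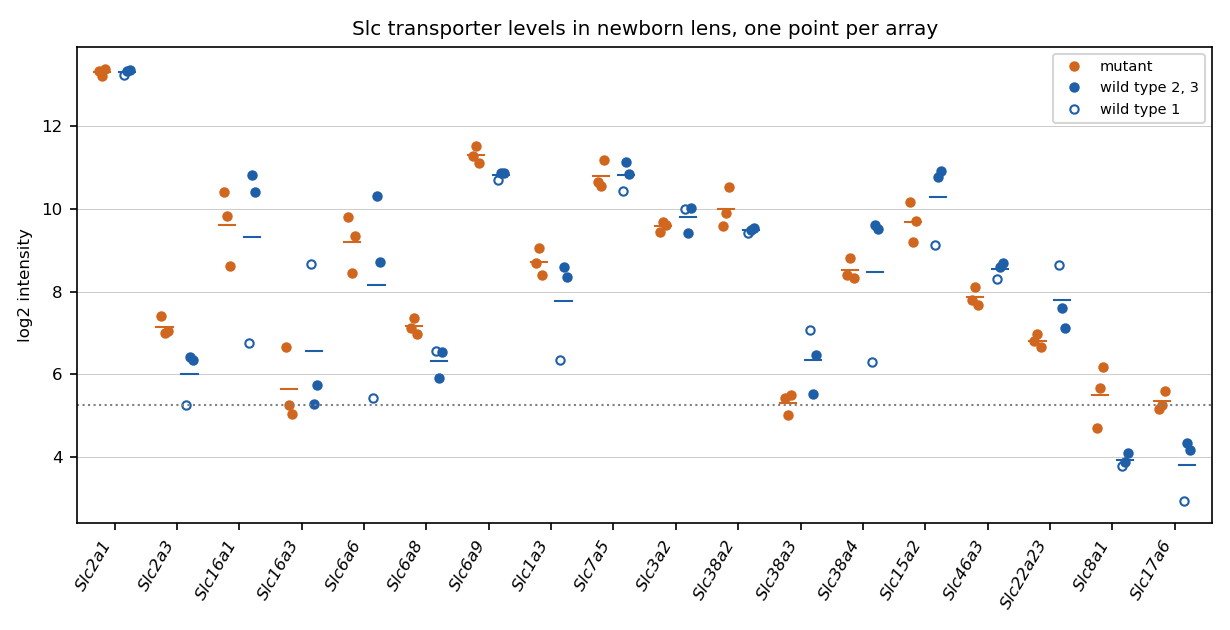
Log2 intensity (vertical axis) of 18 Slc genes on each array, with mutants in orange, wild types 2 and 3 in filled blue, wild type 1 as an open blue circle, short lines for group means and a dotted line at the median probe set (5.26). Slc2a1 lay between 13.22 and 13.39 on all arrays, whereas wild type 1 sat at 5.42 for Slc6a6 and 6.77 for Slc16a1, below the other 5 arrays.

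Among the sugar carriers, Slc2a1 had equal means and Slc2a3 had the larger value in mutants. Slc2a1 was at 13.34, 13.22 and 13.39 in mutants 1 to 3 and at 13.24, 13.34 and 13.36 in wild types 1 to 3. The groups overlapped throughout, with a difference of 0.00 ± 0.17 (SE) and a 95% interval of -0.39 to 0.40, and it was -0.03 without wild type 1. Its other probe sets differed by 0.08 ± 0.16 and -0.04 ± 0.17. The level was close to the highest of any probe set (13.9 to 13.97 per array), where differences can be compressed.

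Slc2a3, which encodes the high-affinity glucose transporter GLUT3 known from neurons, was at 7.41, 6.99 and 7.05 in mutants and at 5.25, 6.43 and 6.34 in wild types. Every mutant array was above every wild-type array, and wild type 1 was the lowest. The difference was 1.15 ± 0.35 (SE, 2.22-fold, limma unadjusted p = 0.0153), and 0.77 without wild type 1. A second bright probe set was at 6.9, 6.39 and 6.43 in mutants and 3.97, 5.75 and 5.06 in wild types, again without overlap, and differed by 1.65 ± 0.45. Its other probe sets, both dim, differed by 0.20 and -0.06. The summed intensity of the 10 neuron and synapse markers moved in the same direction, from 2692 to 3431 in mutants and 570 to 1597 in wild types, and its part in the Slc2a3 values was not tested.

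Of the remaining sugar carriers, the groups did not overlap for Slc5a11, a dim inositol carrier, which differed by -0.41 ± 0.24, and by -0.20 without wild type 1. Slc37a4, the glucose-6-phosphate carrier of the endoplasmic reticulum, was at 8.1, 8.24 and 8.31 in mutants and 9.18, 7.68 and 7.66 in wild types. Wild type 1 was above all mutants and the other wild types were below them, so that a difference of 0.04 ± 0.43 became 0.55 without that array. Slc5a3, the sodium-coupled myo-inositol carrier that serves osmotic balance, was dim and differed by -0.29 ± 0.28. Without wild type 1, the highest array for Slc5a3, its difference was -0.01. Slc37a2, a sugar phosphate carrier that was dim as well, differed by -0.50 ± 0.28. The 24 members of this group were placed in it by family number, not by the substrate of each gene. Of these 8 had higher and 16 lower values, with a median of -0.03 that was 0.02 without wild type 1, and Slc2a3 alone had a limma unadjusted p under 0.05.

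Lactate and other monocarboxylates leave cells through members of the Slc16 family, and for Slc16a1 and Slc16a3 the difference rested on wild type 1. Slc16a1, which encodes MCT1, was at 10.41, 9.82 and 8.63 in mutants and at 6.77, 10.81 and 10.42 in wild types. The lowest array was wild type 1, and the other wild types were above all mutants. The difference was 0.29 ± 1.10 (SE) with all arrays and -0.99 without wild type 1.

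Slc16a3, which encodes MCT4, the carrier of glycolytic cells, had the opposite arrangement. It was at 6.67, 5.26 and 5.04 in mutants and 8.66, 5.29 and 5.75 in wild types, with wild type 1 the highest array. Its difference was -0.91 ± 0.93, and 0.14 without wild type 1. Slc16a6, another member of the family, differed by -0.56 ± 0.29, and by -0.48 without that array, with overlapping groups. The dim members Slc16a4 (-0.20 and -0.33), Slc16a8 (-0.31 and -0.26), Slc16a11 (-0.07 and -0.01) and Slc16a7 (0.25 and -0.11) are given as the difference with all arrays and without wild type 1.

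The Slc1 family holds the carriers of glutamate and of small neutral amino acids, and 5 of its 6 measured members had higher values in mutants, with a median difference of 0.72 that was 0.36 without wild type 1. Slc1a1, a neuronal and epithelial glutamate carrier, was at 6.66, 7.25 and 7.45 in mutants and 5.52, 6.7 and 6.59 in wild types. The groups overlapped by a single pair of arrays, and the difference of 0.85 ± 0.38 (SE) was 0.48 without wild type 1. Slc1a3, a glutamate carrier of glia, was at 8.68, 9.05 and 8.4 against 6.35, 8.59 and 8.36. Wild type 1 was far below the other 5 arrays, and the difference of 0.94 ± 0.60 was 0.23 without it. Slc1a4, which carries alanine, serine and cysteine, was at 12.08, 12.14 and 12.35 against 12.35, 11.97 and 11.96, a difference of 0.09 ± 0.20 that was 0.22 without wild type 1. Slc1a6, a glutamate carrier known from cerebellar neurons, was dim and differed by 0.59 ± 0.24, with no overlap. The glutamine carrier Slc1a5 was dim and differed by -0.05 ± 0.23, and by 0.03 without wild type 1.

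Among the sodium- and chloride-coupled carriers of the Slc6 family, Slc6a9 and Slc6a8 had higher values in every mutant array. Slc6a9, which encodes the glycine carrier GLYT1, was at 11.29, 11.53 and 11.11 in mutants and at 10.71, 10.86 and 10.87 in wild types. The lowest mutant lay above the highest wild type, and all 6 arrays lay within 1 log2. The difference was 0.50 ± 0.19 (SE, 1.41-fold, limma unadjusted p = 0.0347), and 0.45 without wild type 1. Slc6a8, the creatine carrier, was at 7.13, 7.36 and 6.98 against 6.56, 5.91 and 6.53. Here wild type 2 was the lowest array, and the difference of 0.83 ± 0.24 (limma unadjusted p = 0.0132) was 0.94 without wild type 1. Each of these genes has a second, dim probe set, with differences of 0.14 ± 0.18 for Slc6a9 and 0.01 ± 0.16 for Slc6a8.

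The taurine carrier Slc6a6, which serves osmotic balance, varied most with wild type 1 among bright members. It was at 9.8, 8.45 and 9.34 in mutants and 5.42, 10.3 and 8.72 in wild types. The highest and the lowest array were both wild types. A difference of 1.05 ± 1.18 became -0.32 without wild type 1. Slc6a17, a neutral amino acid carrier of synaptic vesicles, was at 6.88, 7.83 and 6.68 against 7.4, 5.77 and 5.94. Wild type 1 lay among the mutants and the other wild types below them, and the difference of 0.76 ± 0.52 was 1.28 without wild type 1. The dopamine carrier Slc6a3, whose window is printed above, was dim, at 5.46, 5.27 and 5.53 against 4.85, 4.98 and 5.08. The groups did not overlap, with a difference of 0.45 ± 0.18.

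The light subunits of the Slc7 family pair with the heavy chains of the Slc3 family, and the differences of a bright pair of these had intervals that included 0. Slc7a5, the large neutral amino acid carrier LAT1, was at 10.66, 10.56 and 11.19 in mutants and 10.44, 11.14 and 10.85 in wild types, a difference of -0.01 ± 0.27 with a 95% interval of -0.66 to 0.64, and -0.19 without wild type 1. Its heavy chain Slc3a2 was at 9.45, 9.68 and 9.62 against 9.99, 9.42 and 10.01, a difference of -0.22 ± 0.22 with an interval of -0.76 to 0.32, and -0.13 without wild type 1. The groups overlapped for both. Slc7a8, the related carrier LAT2, was at 6.26, 6.4 and 7.03 against 4.68, 7.04 and 7.91. Here too wild type 1 was lowest, and the difference of 0.02 ± 0.79 was -0.92 without it. The cystine and glutamate exchanger Slc7a11, which supplies cysteine for glutathione, was dim and differed by -0.06 ± 0.29, and by 0.20 without wild type 1. Slc7a9, a cystine carrier of kidney and gut, was dim too and differed by -0.34 ± 0.19, without overlap. Slc7a3, a carrier of cationic amino acids, was dim, and its difference of 1.40 ± 0.75 rested on mutant 3 at 6.5, with the other mutants at 3.77 and 3.79 and the wild types at 2.88 to 3.7.

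The sodium-coupled neutral amino acid carriers of the Slc38 family, all 6 of them bright, went in both directions, with 3 higher and 3 lower. Slc38a2, an amino acid carrier that is induced when cells lack amino acids, was at 9.58, 9.89 and 10.52 in mutants and at 9.42, 9.48 and 9.53 in wild types. The mutants were all above the wild types, narrowly so for mutant 1, and the difference was 0.52 ± 0.27 (SE). Slc38a3, a glutamine carrier, was at 5.42, 5.02 and 5.49 against 7.08, 5.53 and 6.46. The mutants were all below the wild types, with wild type 1 the highest array, and the difference of -1.04 ± 0.40 (2.06-fold lower, limma unadjusted p = 0.0386) was -0.68 without it. Slc38a4, a carrier of neutral and cationic amino acids, was at 8.4, 8.82 and 8.33 against 6.3, 9.61 and 9.51. Again wild type 1 was the lowest array and the other wild types the highest ones, so that 0.04 ± 0.88 became -1.05 without wild type 1. Slc38a5, a glutamine carrier, was at 4.77, 4.53 and 5.27 against 7.19, 5.18 and 5.06, and -0.96 ± 0.59 became -0.27 without wild type 1.

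Of the proton-coupled carriers of the Slc15 family, Slc15a2 and Slc15a1 had the same arrangement of arrays as Slc38a4. Slc15a2, which encodes PEPT2, was at 10.17, 9.19 and 9.7 in mutants and 9.13, 10.77 and 10.92 in wild types. Wild types 2 and 3 were above all mutants and wild type 1 below them, with a difference of -0.59 ± 0.52 (SE), and -1.16 without wild type 1. Slc15a1, which encodes PEPT1, was at 6.32, 5.81 and 6.64 against 3.26, 7.18 and 7.04, and 0.43 ± 1.04 became -0.85 without wild type 1. Slc15a4, a peptide and histidine carrier of lysosomes, did not follow it, with a difference of 0.42 ± 0.28 that was 0.25 without wild type 1. Its dim relative Slc15a3 differed by 0.38 ± 0.28, and by 0.46 without that array.

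Second, dim probe sets of Slc15a2 and Slc38a4 did not place wild type 1 lowest. That of Slc15a2 was at 4.49, 3.65 and 3.79 in mutants and 6.14, 5.07 and 5.45 in wild types. Here wild type 1 was the highest array, the groups did not overlap, and the difference was -1.58 ± 0.36 (limma unadjusted p = 0.00357, against an adjusted threshold that no probe set passed). That of Slc38a4 was at 4.23, 4.48 and 3.55 against 5.17, 4.48 and 5.23, a difference of -0.87 ± 0.33. These were singled out after their values were seen. Of the 150 other probe sets of Slc genes 2 were lower and 2 higher at an unadjusted p under 0.05, and of all probe sets 1.58% were lower and 1.7% higher at that threshold.

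**Figure D2:**
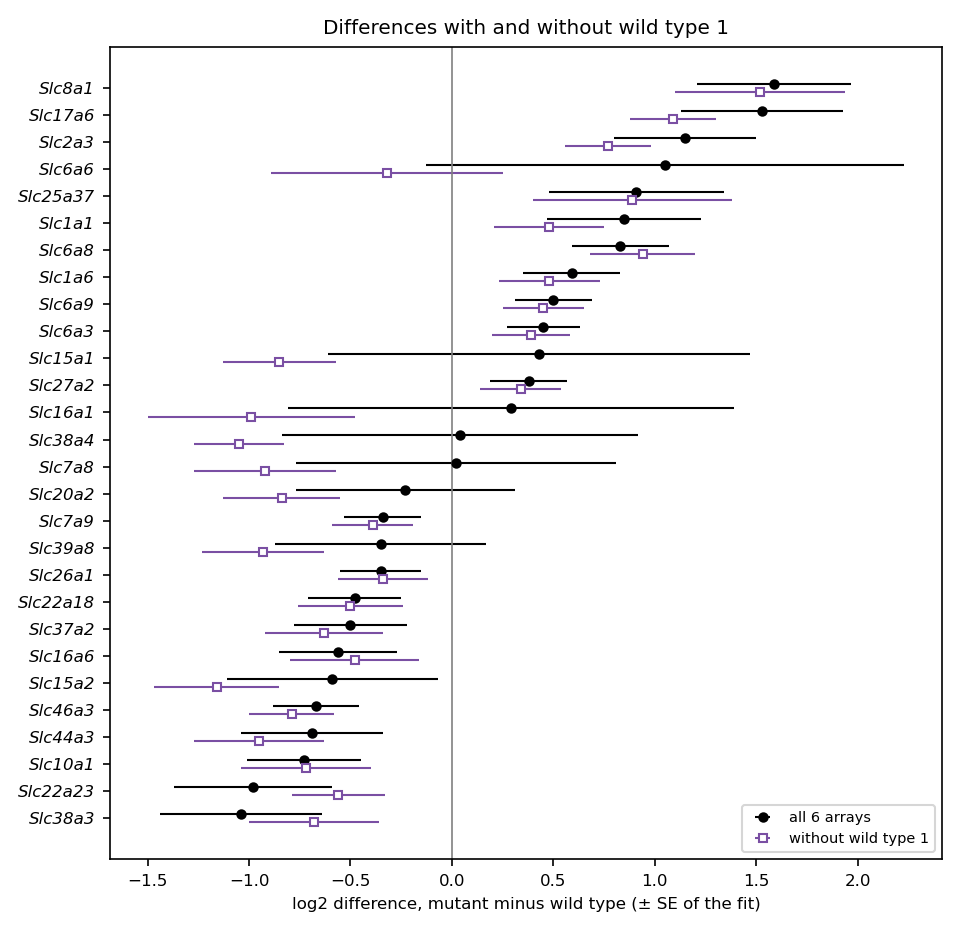
Log2 difference, mutant minus wild type, with bars of 1 SE of the fit, for the 10 Slc genes of lowest p in each direction and 8 others named in the text, with all 6 arrays (black circles) and without wild type 1 (open squares). Slc8a1, Slc6a8, Slc6a9 and Slc46a3 moved by less than 0.2 between the fits, whereas Slc38a4 moved from 0.04 to -1.05 and Slc16a1 from 0.29 to -0.99.

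Among ion carriers, the sodium-calcium exchanger Slc8a1 had the lowest p of all members. It was at 4.71, 5.66 and 6.17 in mutants and at 3.78, 3.89 and 4.11 in wild types. The wild types were tightly grouped and the mutants spread above them, with no overlap. The difference was 1.59 ± 0.38 (SE, 3.01-fold, limma unadjusted p = 0.00465), and 1.52 without wild type 1, at a level dimmer than the median probe set. Its other probe sets, dim as well, differed by -0.19 ± 0.30 and -0.01 ± 0.20.

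The other ion carriers named here had differences smaller than 2 SE with all arrays. Slc12a2, the sodium-potassium-chloride cotransporter NKCC1 that regulates cell volume, was at 8.4, 8.31 and 8.65 in mutants and 7.8, 8.59 and 8.24 in wild types, a difference of 0.24 ± 0.25 that was 0.04 without wild type 1. Its other probe sets, both bright, had the opposite sign, with differences of -0.56 ± 0.39 and -0.38 ± 0.34. The potassium-chloride cotransporter Slc12a4 was dim and differed by -0.08 ± 0.22, and by -0.23 without wild type 1. The sulfate carrier Slc26a1 was dim and differed by -0.35 ± 0.20. Slc4a4, a sodium bicarbonate cotransporter, was dim and differed by 0.52 ± 0.65, and by 0.01 without wild type 1. The phosphate carrier Slc20a2 was at 8.09, 8.45 and 8.35 against 7.31, 8.73 and 9.55. As for Slc38a4, wild type 1 was the lowest array and the other wild types were the highest, so that -0.23 ± 0.54 became -0.84 ± 0.29 without wild type 1. Of the 42 ion carriers, 17 had higher and 25 lower values, with a median of -0.07 (0.00 without wild type 1), 11 were bright, and Slc8a1 alone had a limma unadjusted p under 0.05.

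Metal carriers were mostly bright (17 of 23), and 16 of 23 had higher values in mutants, with a median of 0.12 and of 0.08 without wild type 1. In neither direction did a metal carrier reach a limma unadjusted p under 0.05. Zinc exporters of the Slc30 family load zinc into vesicles or out of the cell, and 7 of 8 had higher values, with a median of 0.13 that was smaller than the median SE of 0.25. Without wild type 1 their median was 0.05, with 6 higher. Slc30a9 was at 11.39, 11.14 and 11.18 in mutants and 11.56, 10.99 and 10.86 in wild types, a difference of 0.10 ± 0.24 that was 0.31 without wild type 1. Among the zinc importers, Slc39a14 was at 5.51, 5.51 and 6.25 against 5.37, 5.32 and 5.29. The mutants were all above the wild types, with mutant 3 the farthest, and the difference was 0.43 ± 0.25. Slc39a8 was at 6.75, 7.6 and 6.9 against 6.29, 8.1 and 7.91, and -0.35 ± 0.52 became -0.93 without wild type 1. The zinc exporter of the plasma membrane, Slc30a1, was dim and differed by 0.24 ± 0.31, and by 0.03 without wild type 1. The zinc importer Slc39a1 and the iron exporter ferroportin, Slc40a1, differed by -0.05 ± 0.24 and -0.33 ± 0.40, and by 0.11 and -0.47 without wild type 1.

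The mitochondrial carriers of the Slc25 family, which pass nucleotides, phosphate and metabolites across the inner membrane, had a median difference of 0.00 over 33 members, with 18 higher and 15 lower. The ATP and ADP exchanger Slc25a4 was at 11.49, 11.76 and 11.44 in mutants and 11.4, 11.61 and 11.84 in wild types, a difference of -0.06 ± 0.20 with a 95% interval of -0.54 to 0.43, and -0.17 without wild type 1. Its relative Slc25a5 differed by 0.15 ± 0.35, and by -0.20 without wild type 1, which was at 10.46 with the other arrays at 10.91 to 11.55. The phosphate carrier Slc25a3 differed by 0.22 ± 0.19, and by 0.13 without that array. No member had a limma unadjusted p under 0.05 with all arrays. Slc25a14, which encodes a relative of the uncoupling proteins, was at 10.46, 10.36 and 10.76 against 10.61, 10 and 9.74, and its difference of 0.41 ± 0.27 was 0.66 without wild type 1.

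The Slc35 family holds nucleotide sugar carriers that feed glycosylation in the Golgi. Its 18 measured members were grouped by family number, not by the substrate of each gene, and 15 of them were bright. Their median difference was -0.03, with 7 higher and 11 lower, and -0.08 without wild type 1. Slc35b1 was at 10.01, 10.51 and 10.23 in mutants and 10.14, 10.49 and 10.19 in wild types, a difference of -0.02 ± 0.21 that was -0.09 without wild type 1. Slc35a5 was at 7.35, 7.23 and 7.88 against 4.12, 8.04 and 7.7. Wild type 1 was far below the other arrays, and 0.87 ± 1.01 became -0.38 without it. Another bright probe set of Slc35a5 also placed wild type 1 lowest and differed by 0.69 ± 1.08. A dim one was at 4.71, 4.57 and 4.95 against 3.68, 4.35 and 3.61, without overlap, a difference of 0.86 ± 0.26. The remaining probe sets, dim too, differed by -0.15 ± 0.29 and 0.22 ± 0.23.

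Of the carriers of vitamins, nucleosides and choline, Slc46a3 had lower values in every mutant array. Slc46a3, a lysosomal carrier related to the folate carrier of the gut, was at 7.79, 8.12 and 7.67 in mutants and at 8.31, 8.6 and 8.69 in wild types. The highest mutant was below the lowest wild type and no array stood off. The difference was -0.67 ± 0.21 (SE, 1.6-fold lower, limma unadjusted p = 0.0165), and -0.79 without wild type 1. Slc44a3, of the choline carrier family, was dim and differed by -0.69 ± 0.35, and by -0.95 without wild type 1. The vitamin C carrier Slc23a2 and the nucleoside carrier Slc29a1 were dim and differed by -0.16 ± 0.26 and -0.17 ± 0.19, and by -0.40 and -0.27 without wild type 1. Over the 20 members the median was -0.08, with 9 higher and 11 lower, and -0.12 without wild type 1.

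Among carriers of organic acids, bases and lipids, 6 of 38 were bright, with a median difference of -0.03 over all 38, and of -0.02 without wild type 1. Slc22a23, of the organic ion carrier family, was at 6.81, 6.97 and 6.66 in mutants and 8.64, 7.6 and 7.13 in wild types. The mutants were all below the wild types, with wild type 1 the highest, and the difference of -0.98 ± 0.39 (1.97-fold lower, limma unadjusted p = 0.0425) was -0.56 without it. The bile acid carrier Slc10a1, known from liver, was dim and differed by -0.73 ± 0.28, without overlap. Its other probe set, also dim, had the opposite sign, with a difference of 0.15 ± 0.21. Slc22a18 and the fatty acid transport protein Slc27a2 were dim as well, with differences of -0.48 ± 0.23 and 0.38 ± 0.19.

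**Figure D3:**
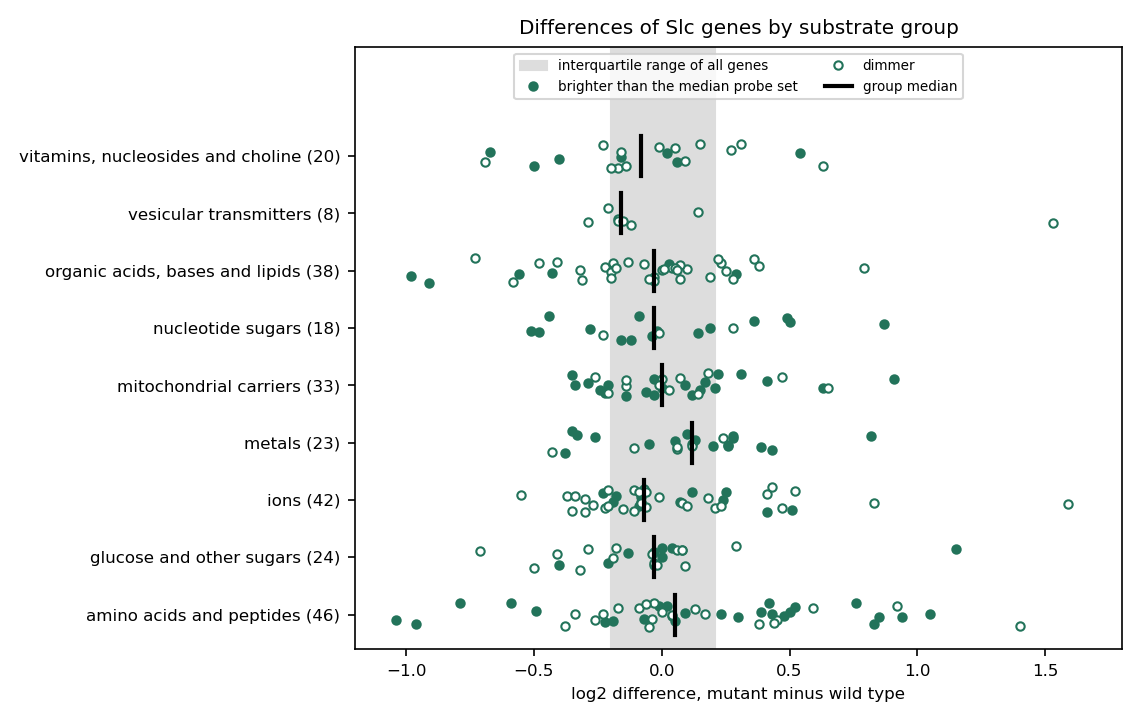
Log2 difference, mutant minus wild type, of each Slc gene by substrate group (number of genes in parentheses), filled where brighter than the median probe set and open where dimmer, with a black bar at the group median, vertical scatter without meaning, and the interquartile range of all genes in grey (-0.20 to 0.21). The medians lie between -0.16 and 0.12, inside that range, and 2 genes of a family without a group are not drawn.

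Some members are known from other cells than those of the lens. Slc17a6, which loads glutamate into synaptic vesicles, was dim, at 5.17, 5.27 and 5.61 in mutants and at 2.93, 4.35 and 4.18 in wild types. The mutants were all above the wild types, with wild type 1 the lowest, and the difference of 1.53 ± 0.40 (SE, 2.89-fold, limma unadjusted p = 0.00731) was 1.09 without it. Its other probe set, dim as well, was at 4.38, 2.95 and 2.74 in mutants and 2.81, 2.88 and 2.59 in wild types. There the groups overlapped, mutant 1 was the highest array, and the difference was 0.6 ± 0.44. Of the 10 neuron and synapse markers, 7 had an unadjusted p under 0.05, none lower, their median without wild type 1 was 1.18, and their summed intensity per array was 3431, 2986 and 2692 in mutants and 570, 1482 and 1597 in wild types. All 8 measured neural retina markers had higher values too, with a median of 0.45 that was 0.19 without wild type 1. Of these 0 had an unadjusted limma p under 0.05. Among 10 stroma markers 8 had higher and 2 lower values, with a median of 0.47. The part of neurons, retina or stroma in the values of Slc17a6, Slc8a1, Slc6a17, Slc1a6 and the other members was not tested. Slc32a1, which loads inhibitory transmitters into vesicles, was dim and differed by 0.14 ± 0.22, and by 0.05 without wild type 1.

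The red cell anion exchanger Slc4a1 was dim and followed single arrays in both groups, at 6.9, 2.88 and 4.6 in mutants and 5.67, 3.3 and 2.91 in wild types. Mutant 1 and wild type 1 were the highest of their groups, and the difference of 0.83 ± 1.15 was 1.69 without wild type 1. The summed intensity of 4 measured red cell markers, all dim, was 223, 31 and 83 in mutants and 153, 33 and 26 in wild types, highest on the same arrays. That sum followed 1 gene, Alas2, at 7.67, 3.24 and 5.92 in mutants and 6.99, 3.63 and 2.76 in wild types. Hba-a1, Epb42 and Klf1 lay between 2.5 and 3.24 on all arrays. Slc25a37, the iron importer of mitochondria that is abundant in red cell precursors, was at 6.86, 5.25 and 5.47 against 4.91, 5.06 and 4.87. Mutant 1 was the highest array and the groups did not overlap, with a difference of 0.91 ± 0.43. Whether red cell RNA had a part in it was not tested.

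Slc11a1, a metal carrier of macrophages, was dim at 3.27, 3.98 and 3.73 in mutants and 3.99, 3.59 and 3.22 in wild types, a difference of 0.06 ± 0.29 that was 0.25 without wild type 1. Of the 12 macrophage and leukocyte markers 11 had higher values, with a median of 0.76 (0.72 without wild type 1), and 2, Ptprc and Cd68, had an unadjusted p under 0.05. They had summed intensities of 754, 3174 and 887 in mutants and 546 to 879 in wild types. Slc45a2, which serves pigment synthesis in melanosomes, was dim and differed by -0.18 ± 0.29, and by -0.06 without wild type 1. Of 6 measured pigment cell markers 4 had higher and 2 lower values, with a median of 0.6 (0.3 without wild type 1). Pmel (0.74 ± 0.24) and Dct (1.05 ± 0.39) had an unadjusted limma p under 0.05. The summed intensities of the 6 were 2806 to 3269 in mutants and 3062 to 3644 in wild types. The brightest of them, Mitf, differed by -0.29 ± 0.17 and weighs most in these sums.

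Wild type 1 set many of the Slc values. It lay 1 log2 or more from the median of the other 5 arrays for 45 of the 112 bright Slc genes (40.2%, against 33.3% of all bright genes), 28 of them below and 17 above. For the other 5 arrays the same share of bright Slc genes was 6.25% to 13.4%. The lowest values against the other arrays were those of Slc6a6 (-3.92), Slc16a1 (-3.64), Slc35a5 (-3.58) and Slc15a1 (-3.38), and the highest were those of Slc16a3 (3.37), Slc35c2 (2.23) and Slc38a5 (2.13). The 3′ minus 5′ difference of the control probe sets of Gapdh, a measure of RNA integrity, was 1.07 on wild type 1 and 0.73 to 1.39 on the others.

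**Figure D4:**
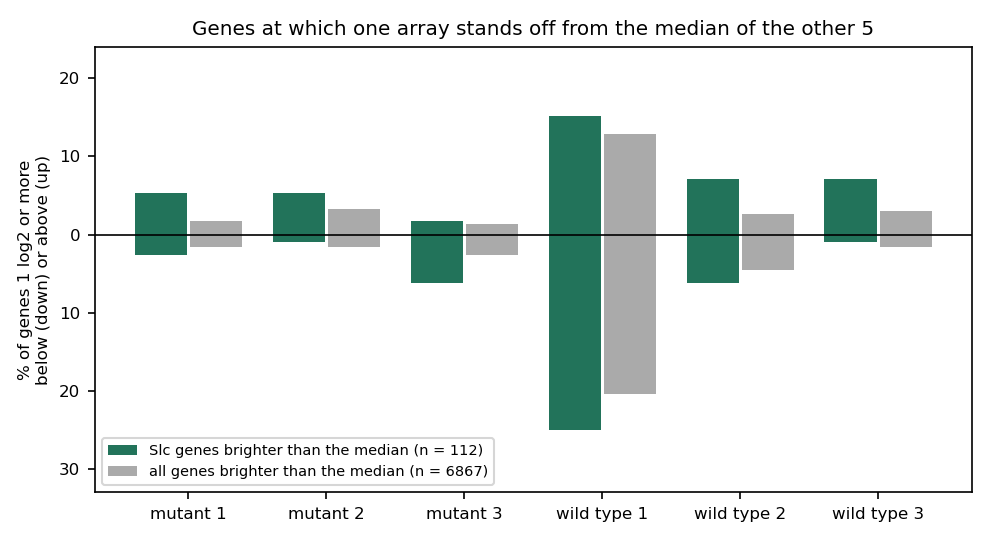
Share of bright genes (vertical axis, percent) that lay 1 log2 or more above (bars up) or below (bars down) the median of the other 5 arrays, for each array, with Slc genes in green and all genes in grey. Wild type 1 has 15.2% above and 25% below for Slc genes, more than any other array.

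Without wild type 1, 8 Slc genes were higher at an unadjusted limma p under 0.05 (3.15%, against 3.13% of all genes) and 9 were lower (3.54%, against 3.16%). Both groups then did not overlap for 29 genes with mutants above (11.4%, against 10.8% of all genes) and 24 with mutants below (9.45%, against 10.8%). The 9 lower genes were Slc38a4, Slc15a2, Slc15a1, Slc7a8, Slc20a2, Slc39a8, Slc44a3, Slc46a3 and Slc22a23, of which the last pair were also under 0.05 with all arrays. Slc17a6, Slc2a3, Slc6a8 and Slc8a1 were under 0.05 and higher with and without wild type 1. The sign of the difference was opposite without wild type 1 for 60 of the 254 genes (23.6%, against 28.9% of all genes).

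Genes that work beside these carriers were counted from a list of pumps, channels and water pores. Of its 20 entries 12 were measured, 9 with higher and 3 with lower values, and 0 passed the adjusted test. Atp1b2, a beta subunit of the sodium pump that sets the gradient Slc carriers use, was at 6.56, 7.26 and 6.9 in mutants and 6.25, 5.77 and 6.56 in wild types, a difference of 0.71 ± 0.29. Gja3, a gap junction protein of lens fibres, was at 9.03, 8.3 and 9.07 against 10.04, 9.57 and 8.95, a difference of -0.72 ± 0.35 that was -0.45 without wild type 1. The median of the 12 was 0.23, and -0.02 without wild type 1.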

How the data were processed

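The authors deposited 1 column of intensity values per array, on a linear scale; RMA, which corrects background, normalises by quantiles and summarises probe sets, is named per the submitters' processing notes, without a version. No source used here states the step from RMA to this scale. Here log2 was taken with no pseudocount, 64 of 22690 probe sets were left out as array controls, and mutants were set against wild types with limma 3.58.1 (lmFit and eBayes, R 4.3.3), adjusted by Benjamini-Hochberg over 22626 probe sets. The platform annotation gave the names: 20380 had 1 gene symbol, 691 several and 1555 none. All 254 symbols matched a RefSeq table. The number of arrays limits the precision. Without scan dates, batches could not be examined.

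The members and lists were chosen with earlier results of these data known. Slc genes named include the 10 of lowest p in each direction and 40 entries for lens transport and other cells. Of these entries 33 were measured and the rest were not analysed here. Further Slc genes were chosen after their values were seen. They moved with wild-type replicate 1, had bright levels or groups without overlap, or belong to a family described. Substrate groups follow the family number, not the substrate of each gene. The alternatives tried were a replicate block, median centring, quantile normalisation, array weights, a trended prior, 16 added before the log2, averaged probe sets per gene, and fits without dim probe sets or without arrays. The fit was tested on simulated data.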

Additional observations from a re-analysis of the deposited data

How the results depend on the processing

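Under each of 16 alternatives 0 Slc genes passed an adjusted limma p of 0.05, where 11 had an unadjusted p under 0.05 with all arrays, and the lowest adjusted p of an Slc gene under any of them was 0.159. Of all genes, 5 passed with array weights, which gave wild-type replicate 3 a weight of 5.65 and replicate 1 a weight of 0.224, and 0 passed otherwise; the cause was not tested. The median difference of the Slc genes ranged from -0.07 with median centring to 0.04 without mutant replicate 1, within its spread. The labels do not say whether replicate numbers pair the samples. Deviations of same-numbered arrays from their group means correlated at -0.07, -0.26 and -0.16. These cannot decide it, because the wild-type means include wild-type replicate 1. With the replicate block 0 Slc genes passed and the median was -0.01. Of 682 values of named genes under the alternatives, all kept their side of the threshold, and 47 had the sign opposite to that with all arrays, 9 of them without wild-type replicate 1, such as Slc7a8 (0.02 to -0.92) and Slc16a1 (0.29 to -0.99). In each of the 47 the value with all arrays, the value under the alternative, or both lay within 1 SE of 0. The count of Slc genes lower at an unadjusted p under 0.05 was 4 with all arrays and 9 without wild-type replicate 1, an alternative added after seeing the data. Medians of substrate groups moved by more than their spread between arrays in some settings, such as -0.50 for the carriers of organic acids, bases and lipids with dim probe sets left out, which keeps 6 of 38 genes.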

Other observations

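Transporters outside the Slc symbols were measured too. Of 13 listed organic anion (Slco) and ATP-binding cassette (ABC) transporters 10 were measured, 4 with higher and 6 with lower values in mutants, and 0 passed the adjusted limma test. Abcc1, which exports glutathione conjugates, was at 6.62, 6.78 and 6.5 in mutants and at 7.23, 7.03 and 7.2 in wild types. The groups did not overlap, and the difference was -0.52 ± 0.18 (SE), with -0.48 without wild-type replicate 1. Abca1, a cholesterol exporter, was at 6.44, 6.67 and 7.9 against 6.26, 6.37 and 6.02, a difference of 0.79 ± 0.40 in which mutant replicate 3 was the highest array. Abcg2, an exporter of many small molecules, was at 9.86, 9.84 and 9.96 against 9.06, 10.38 and 9.96, a difference of 0.09 ± 0.34 that was -0.28 without wild-type replicate 1. The median difference of the 10 was -0.12, and -0.25 without wild-type replicate 1.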
